A study of Mus musculus with 7 samples.

Results

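The imprinted Dlk1-Dio3 miRNA cluster of the mouse was followed through 4 days of culture of HL-1 cells, an immortalised line of atrial cardiomyocytes that starts to beat as it grows from low density to confluence. The members were all hairpins of the study's hairpin table in a fixed interval of chromosome 12 of GRCm38 that runs from just before mir-1906-1 (start 109544541) to just after mir-410 (end 109743795) and mir-3072, without mir-3072 itself, which made 57 of the 1222 mouse hairpins searched. All 7 libraries came from this 1 line with no treatment and differed only in the day of harvest and in the repeat of the culture. Time course 1 gave a library at days 1, 3 and 4, and time course 2, an independent repeat, gave a library at days 1, 2, 3 and 4. Each library held 4945093 to 6899411 tags on miRNA hairpins, of which 99.5% to 99.8% were placed on a hairpin with at most 2 mismatches. Values are given as tags, or as tags per 1000000 placed tags of the library (counts per 1000000, CPM), and a total over the libraries is called the merged set.

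The region between Dlk1 and Dio3 is imprinted, so that a gene is read from the copy of 1 parent only. The long noncoding RNAs Meg3, Rian and Mirg and the miRNAs that lie in and between them are read from the maternal copy, whereas the protein-coding genes Dlk1, Rtl1 and Dio3 are read from the paternal copy. Several of the miRNAs lie on the strand opposite Rtl1, pair perfectly with its transcript and direct its cleavage. The miRNAs are known from the embryo, the placenta and neurons, where miR-134 limits the size of dendritic spines. A hairpin gives a miRNA from its 5′ or 3′ arm, and the seed of a miRNA, bases 2 to 8, is the main determinant of the targets it pairs with.

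The most frequent deposited tag of each of the 8 members with the most tags is shown here, 5′ to 3′ and with bases 2 to 8 in capitals, because these tags set what could be measured of the cluster.
mir-136 5′ arm, 711 tags: cATTTGTTttgatgatgga
mir-337 5′ arm, 312 tags: gAACGGCGtcatgcaggagtt
mir-673 3′ arm, 97 tags: tCCGGGGCtgagttctgtgcacc
mir-433 5′ arm, 131 tags: aGGCTAGAtcctctgtgt
mir-541 5′ arm, 54 tags: aAGGGATTctgatgttggtcacact
mir-666 3′ arm, 81 tags: gGCTGCAGcgtgatcgcctgctca
mir-370 3′ arm, 34 tags: gGTGGAACctggtttgtc
mir-409 3′ arm, 77 tags: gAATGTTGctcggtgaacccct
The mature miRNAs that RefSeq (GRCm38.p6) lists for the first 2 of these arms, and for the 3′ arms of mir-433 and mir-370, are given for comparison, again with the seed in capitals.
miR-136-5p: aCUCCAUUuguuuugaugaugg
miR-337-5p: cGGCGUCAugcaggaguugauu
miR-433-3p: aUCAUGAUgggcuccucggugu
miR-370-3p: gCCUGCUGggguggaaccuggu
The commonest tags of mir-673, mir-541, mir-666 and mir-409 began at the listed first base. Those of mir-136 and mir-337 began elsewhere and so carried another seed, and those of mir-433 and mir-370 were 18-nt tags that began 26 nt after the listed start of miR-433-5p and 9 nt after that of miR-370-3p. A mature sequence was listed for all 57 members, and for both arms in 49 of them.

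Every member had tags, but the cluster was a very small part of the small RNA of these cells. The 57 hairpins held 6353.5 tags, which was 0.0155% of all placed tags and a mean of 154 ± 50.4 CPM (SD, n = 7). A tag that matched several copies of the same miRNA equally well counted under the copy with the lowest number. A tag that matched hairpins of different names equally well was divided among them. The 9 hairpins of muscle and heart miRNAs, mir-1, mir-133, mir-206, mir-208 and mir-499, held 104584 ± 8118 CPM in the same libraries. Single members held 19 to 1182 tags with a median of 64, against a median of 202 over the other hairpins with tags, and ranked 204 to 596 among 654 hairpins with tags. At these depths 10 members reached 150 tags, the minimum that the study applied to a single miRNA in most of its analyses, 39 were under 100 tags and 24 under 50. The 20 members with the most tags made 71.6% of the cluster, mir-136 alone 18.6% and mir-337 another 9.25%. Only 5 listed mature strands of the 106 in the cluster reached 150 tags that began within 3 nt of their listed start, namely miR-337-5p with 530, miR-673-3p with 195, miR-541-5p with 183, miR-666-3p with 171 and miR-409-3p with 152.

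The hairpins next to the cluster on chromosome 12 stood at other levels. On its proximal side mir-342, in an intron of Evl at chr12:108658620-108658718, held 88425 tags and mir-345, at chr12:108836973-108837068 and overlapping an exon of Slc25a47, held 144485 tags, with 99.8% and 99.9% of them starting at a listed miRNA. On the distal side mir-1247, in an exon of Dio3os at chr12:110278048-110278129, held 65 tags. The hairpin left out, mir-3072 in an exon of Mirg at chr12:109747878-109747960, held 43029 tags, more than the 57 members together, and 14 of them (0.0325%) began within 3 nt of a listed miRNA.

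**Figure D1:**
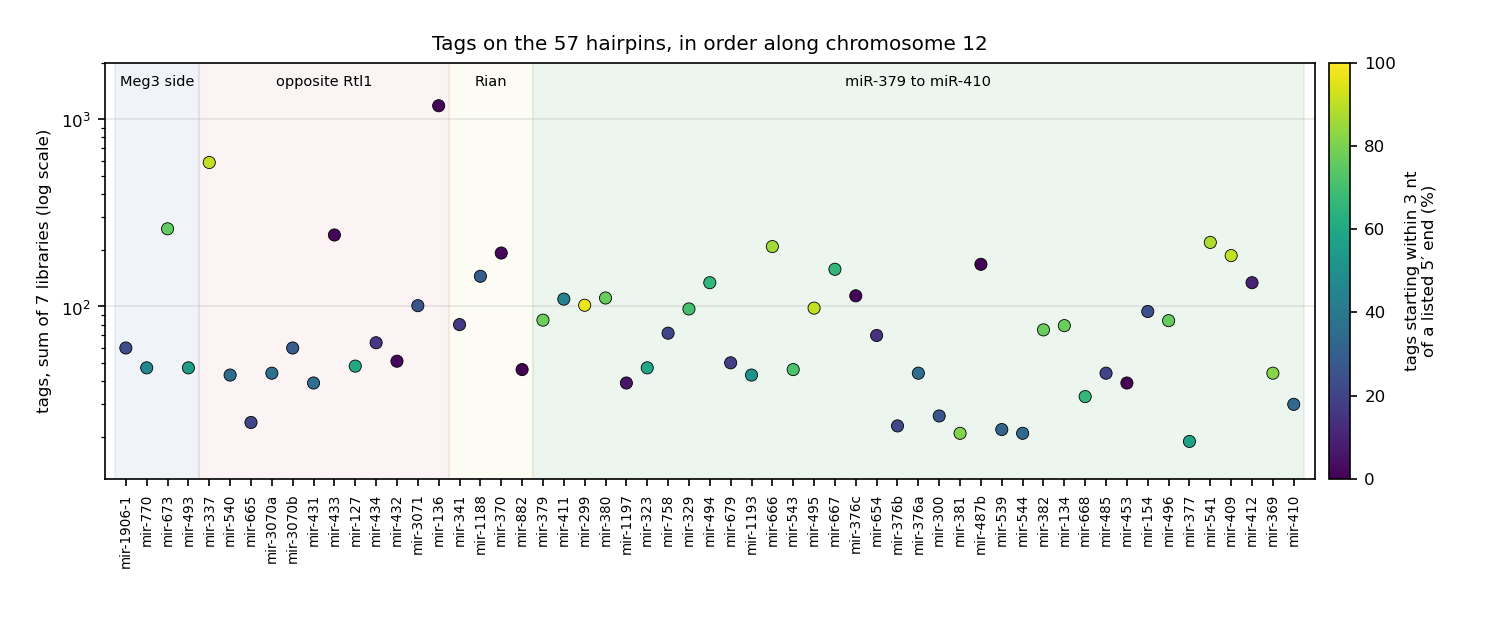
Tags of each of the 57 hairpins over the 7 libraries (log axis), in their order along chromosome 12 and shaded by 4 segments, with the colour giving the percentage of a hairpin's tags that start within 3 nt of a listed miRNA. mir-136 stands highest with 1182 tags but only 1.69% at a listed start, mir-337 is next with 588, and most other hairpins lie below 100 tags.

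By position the cluster falls into 4 segments, with 56 hairpins on the plus strand and mir-3071 on the minus strand. The 4 hairpins on the Meg3 side (mir-1906-1, mir-770, mir-673 and mir-493) held 414 tags, 62.8% of them at a listed start. The 12 hairpins from mir-337 to mir-136, in and beside the stretch opposite Rtl1, held 2485 tags, 27.7% at a listed start. The 4 hairpins in and after Rian (mir-341, mir-1188, mir-370 and mir-882) held 464 tags with 12.9% at a listed start. The 37 hairpins from mir-379 to mir-410, which run into Mirg and are best known from neurons, held 2990.5 tags with 56.0% at a listed start. Over the cluster, 24 members had over 50% and 14 members under 20% of their tags at a listed start. These percentages are of all tags of a hairpin, including 265 tags of 8 members that lay on arms with no RefSeq entry. Over arms with an entry alone, 25 members had over 50% and 14 under 20%.

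The best-covered members differed in the same way. mir-409 (187 tags, 90.9% at a listed start), mir-337 (588, 90.8%), mir-495 (98, 90.8%), mir-541 (220, 87.7%) and mir-666 (209, 85.6%) gave mostly tags counted at a listed start, and so did mir-299 (101.5, 97.0%). In contrast, mir-433 (241 tags, 0.830%), mir-370 (193, 2.59%), mir-376c (114, 0.877%) and mir-412 (9.70%) gave few. Most of the counted tags of mir-337 began 3 nt before the listed first base, at the edge of the window, and carried another seed. For mir-487b, 111 of 168 tags lay on the 3′ arm, which has no RefSeq entry, and 1 of the 57 on the listed arm began at a listed start. mir-376c had 22 tags on such an arm. Of the 202 tags on the 5′ arm of mir-433, 168 (83.2%) began 25 or 26 nt after the listed start of miR-433-5p, and 105 of the 119 tags on the 3′ arm of mir-412 (88.2%) began 6 nt before the listed start. mir-667 (158 tags, 65.8%), mir-494 (65.7%), mir-380 (111, 76.6%), mir-329 (97, 70.1%), mir-411 (109.5, 44.3%), mir-1188 (145, 29.0%) and mir-3071 (101, 25.7%) lay between.

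Across the 7 libraries 43.1% ± 7.73 (SD, n = 7, range 29.3% to 52.5%) of the cluster's tags began within 3 nt of a listed start, against 99.6% ± 0.0531 of the tags on other hairpins. Within 1 nt the values were 29.4% ± 9.16 and 99.0% ± 0.0971. Tags of 20 to 24 nt, the usual length of a miRNA, made 57.9% ± 4.76 of the cluster and 89.5% ± 0.998 of the rest. Tags with a mismatch made 2.66% ± 0.639 and 6.78% ± 1.33. All 3 shares were lower in the cluster in each of the 7 libraries (p = 0.0156 each by an exact permutation test that flips the signs of the differences, two-sided, the smallest value 7 libraries allow). With each distinct tag counted once the differences from other hairpins were -45.2, -11.5 and -51.1 percentage points in place of -56.5, -31.6 and -4.12. For the first share, unlike the percentages of hairpins and segments above, only arms with a RefSeq entry count, which hold 25460050 of the 41034556 tags on other hairpins.

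Other hairpins with as few tags as the members were closer to them in this share. Among other hairpins with 21 to 1102 tags, the median hairpin had 48.1% of its tags on arms with an entry at a listed start (266 hairpins, of which 50.8% lay under 50%), against 36.4% for the members (57 hairpins, 56.1% under 50%) and 99.7% for hairpins with more tags (187 hairpins). The 16 hairpins of the X-linked testis cluster that had tags, together 350 ± 113 CPM, had 87.4% ± 3.90 of their tags at a listed start. The part of tag number in the cluster's share was not tested. Length and mismatches were not compared between hairpins of like tag number, and the values for other hairpins weigh each tag, so hairpins with many tags set them.

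The tags that did not begin at a listed start also had other lengths. Of the cluster's tags at a listed start 78.6% were 20 to 24 nt long and 4.95% carried a mismatch, whereas of the remainder 41.6% were of that length and 0.999% carried a mismatch. Lengths of 18, 19 and 20 nt made 22.8%, 35.3% and 21.5% of the remainder, while 21 nt made 22.6% and 22 nt a slightly larger share of the tags at a listed start. mir-136 gave 1162 of the 3404 tags of the remainder, none with a mismatch, and its commonest tag is 19 nt long. These shares are therefore in large part those of 1 hairpin. Relative to the listed start, 24.7% of the cluster's tags began at the listed base, 19.9% at 4 nt after it and 9.66% at 3 nt before it, the last 2 mostly from mir-136 and mir-337. On other hairpins 94.8% began at the listed base and 3.20% at 1 nt after it. Of 6181.5 tags without a mismatch, 165 (2.67%) also matched a transcript of another gene exactly, among them all such tags of mir-1906-1 and of mir-3071, which lies within an exon of Rtl1 on its sense strand.

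**Figure D2:**
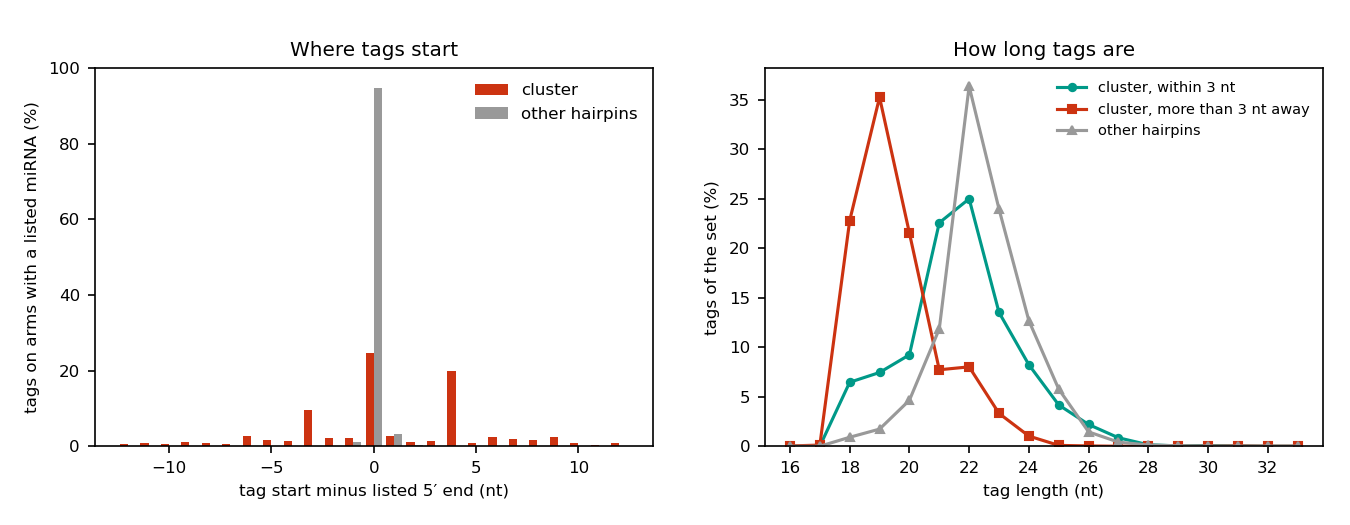
Left, percentage of tags by start position in nt relative to the listed miRNA start, for the cluster and for all other hairpins. Right, percentage of tags by length in nt for cluster tags within 3 nt of a listed start, for those farther away and for other hairpins. The cluster has 24.7% of its tags at the listed base against 94.8% elsewhere. Its tags away from a listed start peak at 19 nt, the length of the commonest tag of mir-136.

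mir-136 (chr12:109595327-109595388, plus strand, opposite an exon of Rtl1) gave nearly all of its tags from 1 place that is not the listed miRNA. Of 1163 tags on its 5′ arm, 1140 began 4 nt after the first base of miR-136-5p and 13 within 3 nt of it, so that the seed read AUUUGUU where the listed seed is CUCCAUU. In the single libraries 92.1% to 99.4% of the 5′ arm tags had this start. At the other end 68.0% of the 5′ arm tags had this start and ended within 1 nt of the listed end. The complementary hairpin mir-3071 (chr12:109595318-109595397, minus strand) covers the same bases, and its commonest tag overlapped that of mir-136 by 19 bases on the opposite strand.
mir-3071, 26 tags: aATCCATCatcaaaacaaatgg
mir-3071 had 9 to 21 tags in every library.

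mir-337 (chr12:109585789-109585885, plus strand), the most proximal hairpin of the segment opposite Rtl1, was shifted in the other direction. Of 575 tags on its 5′ arm, 509 (88.5%) began 3 nt before the first base of miR-337-5p and 4 began at it. The seed of these tags read AACGGCG where the listed seed is GGCGUCA. A shift of 3 nt is the widest that was still counted as a listed start, so 96.0% of the 530 tags of miR-337-5p above are of this form.

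Cluster tags were fewer in every library of days 3 and 4 than in any of days 1 and 2. Time course 1 held 167, 105 and 104 cluster CPM at days 1, 3 and 4, and time course 2 held 219, 224, 132 and 129 at days 1, 2, 3 and 4. All 4 libraries of days 3 and 4 lay below all 3 of days 1 and 2, with means of 117 ± 14.9 (SD, n = 4) and 203 ± 31.7 (SD, n = 3) and a ratio of 0.578. The two-sided exact permutation test over libraries gave p = 0.0571, the smallest that this test allows with 3 against 4 libraries, so it could not reach the threshold of 0.05. With days permuted only within each time course the difference was -79.4 CPM (exact permutation p = 0.0556, the smallest that 18 arrangements allow). The Wilson 95% intervals of the single libraries, which cover counting error only, ran from 95.2 to 141 CPM at days 3 and 4 and from 157 to 237 at days 1 and 2. In bulk libraries fewer cells that express a miRNA and fewer copies per cell cannot be told apart, and a share of placed tags also falls when other miRNAs rise.

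The segment opposite Rtl1 made most of this difference, through mir-136 and mir-337, 2 of its 12 hairpins. The late minus early difference of the cluster was -24.9 CPM without these 2, in place of -85.7. The segment held 80.5, 32.7 and 35.3 CPM in time course 1 and 111, 94.9, 32.5 and 33.1 in time course 2. Days 1 to 2 and days 3 to 4 again did not overlap. The segment from mir-379 to mir-410 held 63.7, 51.9 and 49.9 in time course 1 and 82.2, 102, 81.1 and 77.8 in time course 2, and its early and late libraries overlapped over both time courses but not within either. Without mir-136 and mir-337 the cluster stood at 101 ± 12.2 CPM on days 3 and 4 and 126 ± 17.8 on days 1 and 2, and its libraries overlapped over both time courses (exact permutation p = 0.171). Within each time course they did not, with 109 against 91.3 and 89.4 CPM in time course 1 and 124 and 144 against 110 and 113 in time course 2 (days permuted within time courses, -21.1 CPM, exact permutation p = 0.0556, again the smallest that 18 arrangements allow).

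mir-136 had 243, 40 and 41 tags in time course 1 and 385, 319, 74 and 80 in time course 2. In CPM this was 35.7, 7.44 and 8.31 in time course 1 and 61.9, 63.1, 12.8 and 11.6 in time course 2. The libraries of days 1 and 2 were all higher than those of days 3 and 4, in both time courses. Between days 3 to 4 and days 1 to 2 the level differed by a log2 fold change of -2.25 ± 0.35 (SE), 4.75-fold lower, with an adjusted p of 0.108 by edgeR's quasi-likelihood test with Benjamini-Hochberg adjustment over 527 hairpins, which misses the threshold. With the time course as a block the same test gave -2.07 with an adjusted p of 2.85e-07. Day 4 against day 1 gave -2.16 ± 0.47 with an adjusted p of 0.271, and -2.12 with an adjusted p of 2.06e-05 with the block.

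mir-337 had 151, 36 and 30 tags in time course 1 and 203, 84, 53 and 31 in time course 2. In CPM this was 22.2, 6.69 and 6.08 in time course 1 and 32.7, 16.6, 9.17 and 4.51 in time course 2. Each late library again lay below each early one. Day 4 against day 1 gave a log2 fold change of -2.24 ± 0.42 (SE), 4.71-fold lower, with edgeR's adjusted p = 0.271 without and 3.72e-05 with the block. Days 3 to 4 against days 1 to 2 gave -1.50 ± 0.31 with an adjusted p of 0.360 without and 0.00135 with the block.

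In the fit without the block, 0 of the 46 members that passed the expression filter were called for either comparison of days, and 0 of all 527 hairpins tested (0%). At an unadjusted p under 0.05 there were 2 members for day 4 against day 1, and 4 for days 3 to 4 against days 1 to 2, which were mir-136, mir-337, mir-380 and mir-299, all lower. With the block 2 members were called in each comparison, mir-136 and mir-337, both lower, where 3.98% and 1.71% of all hairpins were called lower and 3.42% and 1.71% higher. DESeq2 also called these 2 in each comparison (0.949% and 0.569% of all hairpins lower, 0.38% and 0% higher). The median log2 fold change of the 46 members was -0.10 against 0.07 over all hairpins for day 4 against day 1 and -0.16 against 0.04 for days 3 to 4 against days 1 to 2. The filter removed 11 members with few tags, so these medians do not describe the whole cluster.

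mir-380, a hairpin near the start of the segment from mir-379 to mir-410, had 20, 8 and 10 tags in time course 1 and 32, 23, 5 and 13 in time course 2. Its early libraries did not overlap its late ones, but the log2 fold change of -1.27 did not pass (edgeR's adjusted p = 0.618). mir-299 had 11, 13 and 3 tags in time course 1 and 13, 37, 14.5 and 10 in time course 2, with the highest value in the single library of day 2. Its log2 fold change of -0.96 (adjusted p = 0.709) was -0.09 without that library. mir-673, upstream at chr12:109571990-109572080, had 37, 31 and 23 tags in time course 1 and 59, 50, 33 and 27 in time course 2, and gave -0.57 (adjusted p = 0.798). Counting only tags at a listed start, miR-673-3p stood at 4.56, 4.09 and 2.43 CPM in time course 1 and at 8.85, 8.11, 3.81 and 1.74 in time course 2.

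Among the members with at least 30 tags, 5 of 50 had all late libraries below all early ones (mir-337, mir-431, mir-434, mir-136 and mir-380), where 9.79% of all hairpins with as many tags did. In the other direction there were 0 of 50, where 1.78% of all hairpins did. Counting only tags at a listed start it was 3 of 19 members below (mir-337, mir-673 and mir-380; 11.5% of all hairpins) and 0 of 19 above (2.11%). The share of members is near that of all hairpins, and 2 of the 5, mir-136 and mir-337, are those called with the block.

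**Figure D3:**
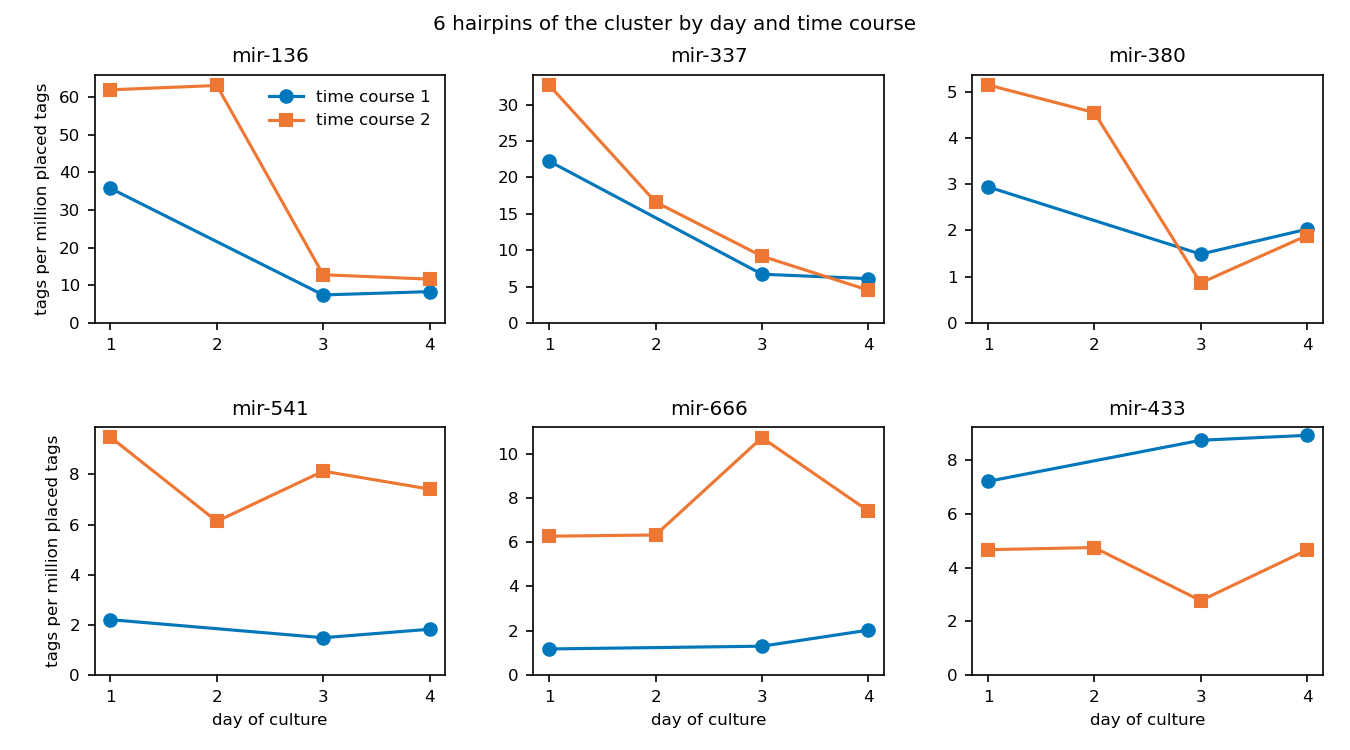
CPM by day of culture for mir-136, mir-337, mir-380, mir-541, mir-666 and mir-433, 1 point per library, with a line for each time course. mir-136 stands at 35.7 and 8.31 at days 1 and 4 of time course 1 and at 61.9 and 11.6 in time course 2, while mir-541 and mir-666 lie higher in time course 2 on every shared day and mir-433 lies lower.

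The repeats of the culture differed in several members of the segment from mir-379 to mir-410, with CPM higher in time course 2. mir-541 (chr12:109742409-109742498, in an intron of Mirg) had 15, 8 and 9 tags in time course 1 and 59, 31, 47 and 51 in time course 2. mir-666 (chr12:109717085-109717183) had 8, 7 and 10 tags in time course 1 and 39, 32, 62 and 51 in time course 2. All 4 libraries of time course 2 lay above all 3 of time course 1 for both hairpins. The differences were 2.19 ± 0.37 for mir-541, 4.56-fold, and 2.42 ± 0.39 for mir-666, 5.35-fold (log2 ± SE, edgeR's quasi-likelihood test with day as a factor, adjusted p = 4.38e-05 and 2.16e-05). Each time course is a single culture, and this test takes libraries of the same culture as replicates. Its p and SE therefore do not measure the spread between cultures, here and for the members below.

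The tags behind this difference were those of the listed miRNAs. miR-541-5p made 183 of the 220 tags of mir-541, with 180 at the listed first base, and 63.1% of the tags on this arm were 24 to 26 nt long, as is the listed sequence with 25 nt.
miR-541-5p: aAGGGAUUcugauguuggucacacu
Its tags at the listed base numbered 5, 6 and 4 in time course 1 and 54, 23, 41 and 47 in time course 2. miR-666-3p had 158 tags at its listed base, 1, 3 and 3 of them in time course 1 and 30, 27, 49 and 45 in time course 2.
miR-666-3p: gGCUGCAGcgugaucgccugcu
With only tags at a listed start the differences were 2.75 ± 0.40 for mir-541 and 2.89 ± 0.44 for mir-666 (log2 ± SE), and both were called by the same test, as the only 2 of 18 members tested (5.25% of all hairpins higher and 3.09% lower). DESeq2 on all tags also called these 2 (5.5% of all hairpins higher and 3.04% lower).

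mir-134 and mir-433 also passed the threshold, at lower counts or smaller differences. mir-134, in an exon of Mirg at chr12:109734139-109734209, had 6, 5 and 4 tags in time course 1 and 25, 12, 14 and 13 in time course 2, a difference of 1.66 ± 0.53 (log2 ± SE, edgeR's adjusted p = 0.0365). mir-433 (chr12:109591715-109591838, opposite Rtl1) went the other way, with 49, 47 and 44 tags in time course 1 and 29, 24, 16 and 32 in time course 2, 2.05-fold lower (-1.03 ± 0.34, adjusted p = 0.0379). For both hairpins the libraries of the time courses did not overlap. Of the 241 tags of mir-433, 168 began 25 or 26 nt after the listed start of miR-433-5p and 39 lay on the 3′ arm, and only 2 began within 3 nt of miR-433-5p or miR-433-3p.

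In all, 4 of 46 members were called between the time courses, 3 higher and 1 lower in time course 2, or 8.70%, where 11.4% of all 527 hairpins were called (6.83% higher and 4.55% lower). The members were thus not called more often than other hairpins, and their median log2 difference was 0.26 against -0.00 over all. Without the library of day 1 of either time course no member was called, and 1 hairpin of the whole table was, with mir-541 at an adjusted p of 0.105 and 0.0800 and mir-666 at the same values. Without any 1 library of day 3 or 4, mir-541 and mir-666 were called and mir-134 and mir-433 were not. Without the day 2 library, which has no partner in time course 1, 6 members were called, with mir-379 and mir-136 added. mir-379 (10, 4 and 5 tags against 18, 12.5, 14 and 21) stood at 1.38 (adjusted p = 0.0629), mir-409 (25, 18 and 15 tags against 40, 15, 32 and 42) at 0.85 (adjusted p = 0.108), and mir-136 at 0.72 (adjusted p = 0.0603).

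By start position, the difference between the time courses in the segment from mir-379 to mir-410 lay in tags at a listed start. These stood at 33.2, 23.2 and 14.6 CPM in time course 1 and at 51.0, 58.3, 50.6 and 50.6 in time course 2, with no overlap. The ratio of time course 2 to time course 1 was 1.53 at day 1, 2.18 at day 3 and 3.47 at day 4. Tags of the same hairpins away from a listed start stood at 24.9, 21.9 and 32.0 in time course 1 and at 27.8, 40.9, 27.3 and 23.3 in time course 2, with ratios of 1.12, 1.25 and 0.726 on the shared days. No test of these sums over members was run, and the ratios are a description.

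Among members with at least 30 tags at a listed start, 7 of 19 had all libraries of time course 2 above all of time course 1 (mir-134, mir-379, mir-369, mir-329, mir-541, mir-666 and mir-667, all of them in the segment from mir-379 to mir-410), where 14.8% of all hairpins with as many such tags did. In the other direction there were 0 of 19, where 7.85% did. Of these 19 members only mir-337, mir-673 and mir-1188 lie outside that segment. With all tags counted it was 8 of 50 above, where 10.5% of all hairpins were, and 4 of 50 below (mir-323, mir-433, mir-487b and mir-493), where 7.30% were.

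Other hairpins moved with the time courses too. The X-linked testis cluster stood at 217 to 243 CPM in time course 1 and at 392 to 475 in time course 2. mir-342, proximal of the cluster, was 1.46 higher on the log2 scale in time course 2 (edgeR's adjusted p = 0.0002), and mir-335, a miRNA in an intron of the imprinted gene Mest, 1.47 higher (adjusted p = 0.000225). The part of these hairpins in the difference between the time courses was not tested.

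**Figure D4:**
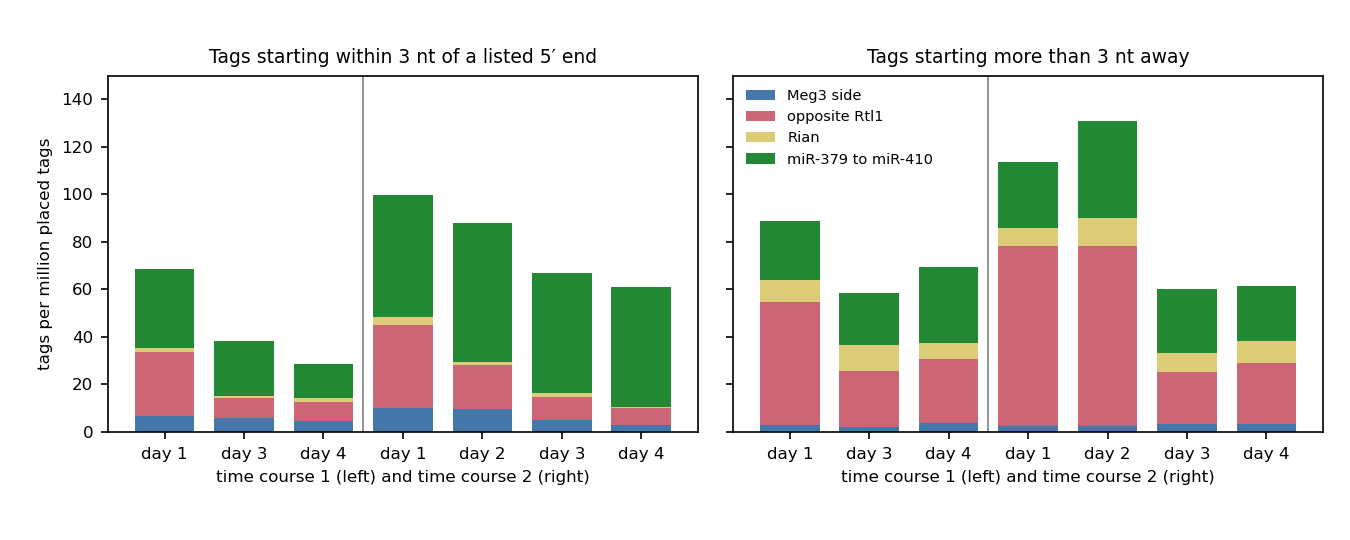
Stacked bars of cluster CPM by library and segment, for tags within 3 nt of a listed start (left) and for tags farther away (right). The segment from mir-379 to mir-410 at a listed start reaches 50.6 to 58.3 in time course 2 and 14.6 to 33.2 in time course 1, and the segment opposite Rtl1 is highest at days 1 and 2 in both panels.

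The remaining members with the most tags did not pass in any comparison. mir-370, in an intron of Rian at chr12:109618258-109618336, had 33, 34 and 10 tags in time course 1 and 21, 38, 28 and 29 in time course 2, with no order by day or time course. mir-127, known for its pairing with Rtl1, had 13, 6 and 4 tags in time course 1 and 8, 5, 2 and 10 in time course 2, and mir-410, the last hairpin of its segment, 30 tags in all.

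The seeds of the cluster were nearly all different. The 106 listed mature strands had 97 distinct seeds, and 8 seeds were shared by more than 1 name. The shared seeds with the most tags at a listed start were GGUUGCC in miR-453 and miR-496a-5p with 62 tags, AUGUAAC in miR-379-3p and miR-411-3p with 51, and GGUAGAC in miR-1193-5p and miR-379-5p with 50. None of these reached the level of the single seeds of miR-673-3p (CCGGGGC, 195 tags) or miR-541-5p (AGGGAUU, 183 tags).

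The muscle and heart hairpins summed above were uneven. mir-1-1 held 2672356 tags, mir-133a-1 1067366, mir-133b 384418, mir-208a 100401 and mir-206 41802, whereas mir-499 held 343 and mir-208b 157. The list of 17 hairpins of miRNAs of neurons, where the cluster is known to be expressed, summed to 2301 ± 487 CPM. In the merged set 10 of these hairpins reached 150 tags. The most were on mir-128-1 with 48596 tags, mir-218-1 with 21946 and mir-138-1 with 11933. The fewest were on mir-137, the copies of mir-124 and 2 of the 3 copies of mir-9, with 13 to 60, while mir-9-1 held 877. The values of mir-1-1, mir-133a-1 and mir-9-1 include any tags that match their other copies equally well. The neuronal list stood at 2556 to 3084 CPM on days 1 and 2 and 1660 to 2235 on days 3 and 4, without overlap. The sum of 5 other imprinted hairpins stood at 54.6 to 84.0 and 22.7 to 48.7, also without overlap. In this sum mir-483 gave 1098 of 1974 tags. Between days 3 to 4 and days 1 to 2 the log2 fold change was -1.07 for mir-483 and -0.69 for mir-298. It was -0.47 for mir-335, -0.30 for mir-296 and 0.17 for mir-675. None of these 5 passed the threshold in edgeR's fit without the block. The part of neuronal or other cells in the difference between days was not tested.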

How the data were processed

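Small RNA was sequenced on the SOLiD platform in 7 HL-1 libraries. The authors isolated RNA with TRIzol, enriched small RNA by electrophoresis, mapped tags to miRBase version 16 hairpins and mm9 with the SOLiD Small RNA Pipeline, and deposited raw counts per distinct tag on miRNA hairpins. The totals here are therefore not sequencing depth. Lines without a sequence (101, with 293 tags) were left out. Tags were placed on GENCODE M21 (GRCm38) hairpins by the best ungapped hit, with at most 2 mismatches, at least 16 nt compared and up to 4 nt past a hairpin end, and 548 of 572 hairpins of the study's table were matched by name. Sequences of mature miRNAs are from RefSeq.

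Tags per hairpin were tested with edgeR 4.0.16 (R 4.3.3; quasi-likelihood test, TMM, filterByExpr, day as a factor, Benjamini-Hochberg threshold 0.05), and single values with exact permutation tests over libraries (SciPy 1.17.1). The edgeR fit was tried on simulated data with independent libraries and no effect of the culture, so that trial does not cover correlated libraries. For edgeR the SE is the log2 fold change over the square root of F. DESeq2 1.42.0 and a fit blocked by time course were alternatives. Replicate numbers stand for repeats of the culture, and residuals of same-numbered libraries were correlated (0.426, 0.395 and 0.410 for days 1 and 3, 1 and 4, and 3 and 4, over 606 hairpins), so they pair the libraries. The single day 2 library is taken to vary like the others. Sign-flip tests and the edgeR test between time courses take the 7 libraries as independent although they come from 2 cultures. Named members were the 20 with the most tags and those past a threshold, and further members were named after their values were seen. Members and lists were chosen with earlier results of these data known.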

Additional observations from a re-analysis of the deposited data

Results flagged for a closer look

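mir-411 and mir-329, both in the segment from mir-379 to mir-410, lay below their day 1 CPM later in time course 1. Later in time course 2 both hairpins lay above it. Some of these steps are small, as from 2.57 to 2.60 for mir-411 at day 3 of time course 2. mir-411 stood at 3.68 CPM at day 1 of time course 1 and at 1.67 and 1.62 at days 3 and 4, whereas in time course 2 it stood at 2.57 at day 1 and at 3.06, 2.60 and 3.05 at days 2, 3 and 4. mir-329 stood at 1.91 at day 1 of time course 1 and at 1.49 and 0.811 after it, and at 2.09 at day 1 of time course 2 and at 4.35, 2.42 and 3.34 after it. These are 4 to 25 tags per library, and the difference between the time courses in the change over days was not tested. mir-3072, left out of the cluster by its definition, held 43029 tags.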

How the results depend on the processing

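Under the alternatives 249 values were recomputed. A share, total or single member was taken as the same if it kept its direction and side of the threshold. A count of members called was taken as the same if it stayed near the main count, so 6 against 4 is among these. Stronger is a pass only under the alternative or a higher count, and weaker is the reverse. Of the counts, shares and totals 71 were the same, 4 were stronger and 11 were weaker. For single members these numbers were 129, 10 and 24, and 0 values reversed. Members called by day rose from 0 to 2 with the replicate block and with DESeq2, in both comparisons of days, and stayed at 0 without any 1 library. The block, in which same-numbered libraries are paired, gave -79.4 CPM (exact permutation p = 0.0556) for the cluster's share. Among the members it changed no call other than those of mir-136 and mir-337. Members called between time courses fell from 4 to 2 with library totals in place of TMM, with DESeq2, with only tags without a mismatch, with only tags at a listed start and with no day term, and ranged from 0 to 6 when 1 library was left out. DESeq2 gave no adjusted p for mir-134 and mir-379 there. The 3 tag shares were lower in the cluster in every library under every alternative, at the smallest p each test allows (exact sign-flip p = 0.0156, or 0.03125 with 6 libraries), but their sizes moved. With each distinct tag counted once, the gap to other hairpins went from -31.6 to -11.5 percentage points for 20 to 24 nt (other hairpins 69.7%), from -4.12 to -51.1 for mismatches (other hairpins 55.8%) and from -56.5 to -45.2 for a listed start. The cluster's share with only tags away from a listed start also gave an exact permutation p of 0.0571. This alternative, leaving out mir-136 and mir-337, and permuting days within time courses were chosen after seeing the data. Most members held under 100 tags, which limits every comparison of days, and RefSeq entries were missing for some arms.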
